A study of Mus musculus with 9 samples.

Results

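The B lineage and immunoglobulin transcripts described here are 10 genes measured by RNA sequencing in monocytes taken from mouse spleen, namely Ighm, Ighd, Igha, Ighg2b, Igkc, Jchain, Cd79a, Cd79b, Ms4a1 and Cd22. They were chosen by gene symbol, with earlier results of these data known. They are 10 of the 46072 genes listed and of the 26108 genes with a value above 0 in at least 1 library. Each symbol had a single row. The libraries came from 9 female C57BL/6 mice, bought at 8 to 10 weeks of age. Con mice received water by gavage and Van mice received vancomycin, which is poorly absorbed from the gut, at 2 mg per mouse each day, split over 2 gavages, for 6 days, and both were then left without antibiotic, for 8 days by the study's account and for 6 to 8 days by the labels. VanLip mice had the same vancomycin course and then L654, a serine-glycine lipid purified from the bacterium Porphyromonas gingivalis that signals through TLR2, injected behind the eye on days 7, 9 and 11. There were 3 mice in each of the 3 groups, with 1 library per mouse. The labels do not say whether Con and Van mice had an injection without lipid. Monocytes were enriched magnetically by depleting other cells with a commercial kit that also selects against CD45R, a surface marker of B cells. They were not sorted by marker, so the preparations may still hold cells of other types.

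Immunoglobulin is made by the B lineage. A naive B cell carries IgM and IgD, encoded by Ighm and Ighd, on its surface in complex with the signaling chains encoded by Cd79a and Cd79b, and it also carries CD20, encoded by Ms4a1, and the inhibitory receptor CD22. When B cells become plasma cells they lose much of the surface receptor and secrete large amounts of antibody, and after class switching the heavy chain is encoded by another constant gene, such as Igha for the IgA of mucosal surfaces or Ighg2b for IgG2b. Most mouse antibodies have a kappa light chain, encoded by Igkc, and the J chain, encoded by Jchain, joins secreted IgM and IgA into polymers. A heavy chain gene can yield a membrane form or a secreted form by the choice of its last exons.

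The 4 heavy chain genes lie together on the minus strand of chromosome 12 of GRCm38. Ighm spans chr12:113418558-113422730, and, measured from the start of Ighm to the start of each gene, Ighd lies 6.41 kb downstream, Ighg2b 115 kb downstream and Igha, the last constant gene of the locus, 162 kb downstream. Igkc lies at chr6:70726435-70726966, Jchain at chr5:88519809-88527891, Cd79b at chr11:106311341-106314762 and Ms4a1 at chr19:11249675-11266241. Cd79a, at chr7:24897381-24902197, and Cd22, at chr7:30865402-30880342, share chromosome 7. All of these are spans of protein-coding or immunoglobulin constant genes in GENCODE release M21.

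The secreted IgM and IgA heavy chains end in a tailpiece that J chain binds, and its coding bases are shown because they set Ighm and Igha apart from Ighg2b. They are the coding bases that only the secreted transcript uses, read from the GENCODE transcripts 5′ to 3′. Capitals mark the codon before the last one, which encodes the cysteine bonded to J chain.
Ighm, chr12:113420870-113420928, minus strand: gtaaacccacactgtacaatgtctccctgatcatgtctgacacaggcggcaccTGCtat
Igha, chr12:113258771-113258829, minus strand: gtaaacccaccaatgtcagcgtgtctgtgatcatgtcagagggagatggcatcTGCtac
The 2 tailpieces are each 59 bases long and have the same base at 40 positions. In Ighg2b the secreted transcript has only 5 coding bases of its own. The membrane transcripts have 122 coding bases of their own in Ighm, 194 in Igha and 212 in Ighg2b. The values below are per gene and do not tell the secreted form from the membrane form.

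The 6 water and vancomycin libraries held 43070361 to 61383806 expected counts each, whereas those of VanLip held 170503470 to 184720704. The commonest low count, which is what 1 read adds, was 1.33 in every Con and Van library and 2.00 in every VanLip library. Sequencing and group therefore cannot be told apart in the contrasts with VanLip. In reads, the members were covered by 18.9 to 130 per library for Ighd, 22.8 to 96.3 for Ms4a1, 48.1 to 242 for Cd79a and at least 245 for each other member. All 393 rows of immunoglobulin constant and variable genes together took 0.104% to 0.173% of a library's total count. Of the 10 monocyte markers, Lyz2 had a mean of 7922 FPKM (fragments per kilobase, relative to all fragments mapped) and Csf1r 577 FPKM. The erythroid markers differed between the groups, with a summed level of 99.6 to 202.5 FPKM in Con, 343 to 772 in Van and 278 to 1162 in VanLip, and 5 of 6 were called higher in Van (0 with edgeR) and 6 of 6 in VanLip against Con. Their part in the values below was not tested. In these bulk samples, fewer cells of a type and less RNA per cell cannot be told apart.

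In the spleen monocyte preparations Igkc, Ighm, Jchain and Igha were more abundant than Cd79b, Cd22, Cd79a and Ms4a1, whereas Ighd was below Cd79b, Cd22 and Cd79a. On the FPKM scale, which is per length, the mean level in Con was highest for Igkc, at 466 ± 60.7 (SD, n = 3), and next for Ighm, at 361 ± 31.2. Jchain, at 43.6 ± 7.1, and Igha, at 36.0 ± 6.8, had ranges that overlapped, and so did Ighg2b, at 10.0 ± 7.1, with both Cd79b, at 9.32 ± 0.86, and Cd22, at 5.62 ± 0.65. These were followed by Cd79a at 1.23 ± 0.34 and Ighd at 0.897 ± 0.088. Ms4a1 was lowest, at 0.339 ± 0.0691. Ighm thus ranked 166th and Igkc 118th among all detected genes in Con, whereas Ighd ranked 11915th and Ms4a1 14067th.

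**Figure D1:**
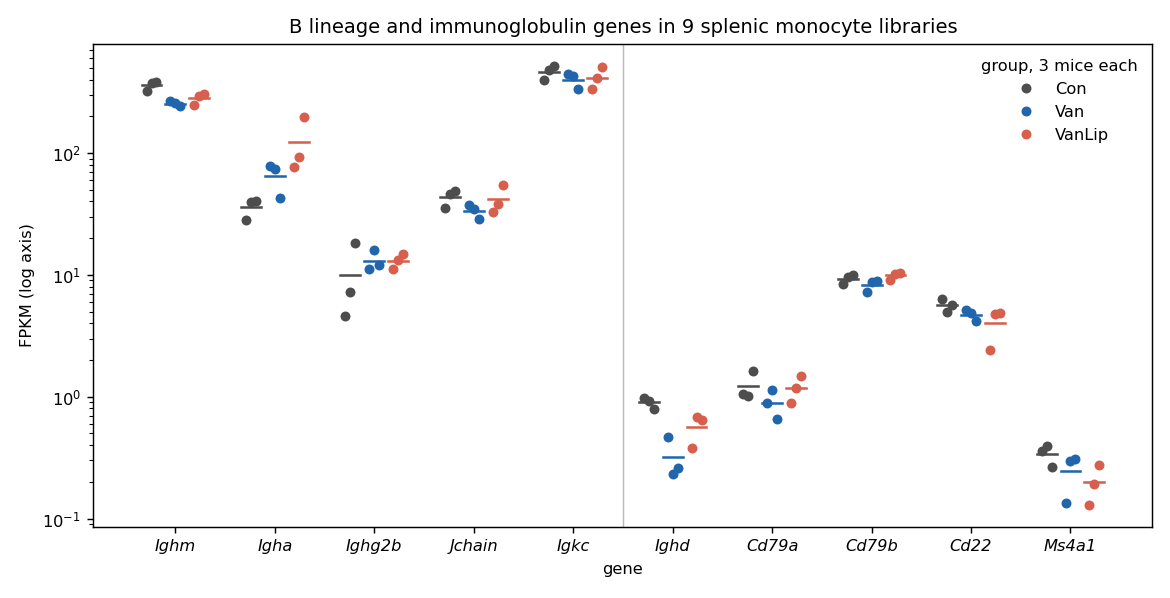
FPKM of the 10 genes (log axis) in each library, with 3 points per group for the 3 mice and a bar at the group mean. Ighm, Igha, Ighg2b, Jchain and Igkc stand left of the gray line, and Ighd and the receptor and surface genes right of it. Igha ran from 28.1 in Con to 199 in VanLip, and Ighd from 0.967 in Con down to 0.234 in Van.

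The first question was which members differed after vancomycin gavage. Ighm and Ighd fell, and no member was called higher. By the DESeq2 Wald test with Benjamini-Hochberg adjustment, 2 of 10 members were called for Van against Con at an adjusted p of 0.05 or under, against 4.33% of all genes tested. For 3 members (Ighm, Ighd and Igha) the Van and Con libraries were fully separated in normalized count, against 20.8% of all genes. All 10 members passed the filter on low counts in each contrast. Of the 10 log2 fold changes, 8 were below 0, and their median was -0.33, against -0.0065 over all genes.

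Against Con, VanLip mice had lower Ighm and higher Igha. The Wald test called 2 of 10 members (6.23% of all genes), and 4 members (Ighm, Ighd, Igha and Cd22) did not overlap between VanLip and Con, against 23.0% of all genes. The median log2 fold change of the members was -0.13, against 0.0077 over all genes. VanLip against Van, groups that differ by the lipid and also by depth and value per read, gave no call among the 10 members by DESeq2, edgeR or limma, although 9.20% of all genes were called. At an unadjusted p under 0.05 there were 3 members (Ighd, Igha and Cd79b), against 3930 of 25420 genes, and only Cd79b did not overlap, against 25.4% of all genes. The median of the members in that contrast was 0.20, against 0.012 over all genes. The likelihood-ratio test of any difference among the 3 groups called 3 members, Ighm, Ighd and Igha, against 11.8% of all genes. With limma on log2(FPKM + 1), the calls of Ighm, Ighd and Igha against Con were all lost (adjusted p = 0.0967 to 0.143), in a fit that called 92 of 26108 genes in Van and 237 in VanLip against Con. The contrasts share their samples and so are not independent of each other.

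**Figure D2:**
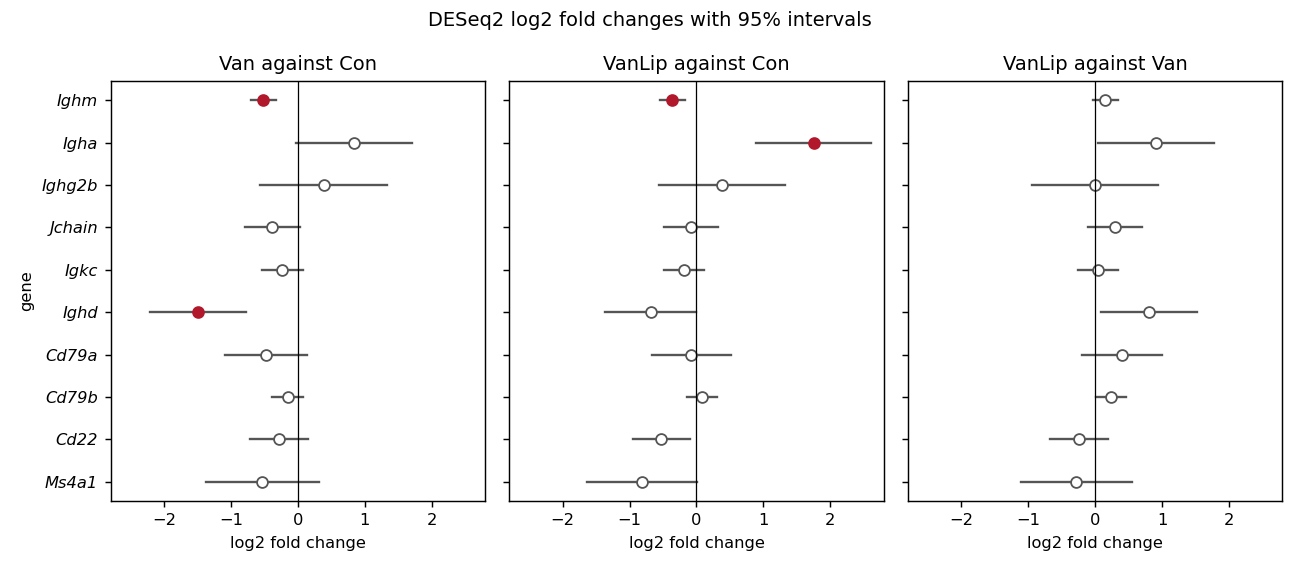
DESeq2 log2 fold changes of the 10 genes (points) with 95% intervals (lines) in the 3 contrasts. Red points passed an adjusted p of 0.05: Ighm and Ighd in Van against Con, and Ighm and Igha in VanLip against Con.

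Ighm, the constant gene of IgM and the first isotype a B cell makes, had levels of 325, 378 and 381 FPKM in the 3 Con mice. They were 268, 255 and 241 FPKM in Van and 247, 293 and 308 FPKM in VanLip. Every Con library was above every library of the other 2 groups. Ighm fell by 0.52 on the log2 scale in Van against Con (standard error 0.096, DESeq2 adjusted p = 1.69e-05), which is 0.699 of the Con level. In VanLip against Con it fell by 0.36 (standard error 0.096, DESeq2 adjusted p = 0.00556). The latter call was lost with the edgeR quasi-likelihood test (adjusted p = 0.0952) and without Con replicate 2 (adjusted p = 0.0703) or Con replicate 3 (adjusted p = 0.0603). Van and VanLip overlapped, and the difference between them was 0.15 (95% interval -0.035 to 0.34, DESeq2 adjusted p = 0.388).

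Ighd, the constant gene of IgD, which marks mature naive B cells, was measured at low levels. It was 0.967, 0.926 and 0.798 FPKM in Con, 0.468, 0.234 and 0.258 FPKM in Van and 0.378, 0.679 and 0.638 FPKM in VanLip. All Con libraries were again above all the others. Ighd fell by 1.49 on the log2 scale in Van against Con (standard error 0.37, DESeq2 adjusted p = 0.00343), which is 0.355 of the Con level, and in reads Van had 18.9 to 46.5 per library. The call was lost with edgeR (adjusted p = 0.0730) and without Van replicate 2 (adjusted p = 0.0535). On the log2(FPKM + 1) scale, which understates the change of so low a gene, limma gave -0.51, and it gave -1.26 with 0.1 in place of 1. The log2 fold change in VanLip against Con was -0.69 (95% interval -1.37 to -0.0034) and did not pass adjustment (DESeq2 adjusted p = 0.273). VanLip against Van gave 0.81 (95% interval 0.094 to 1.52, DESeq2 adjusted p = 0.164), and without Van replicate 1 it was 1.21 with an adjusted p of 0.0349.

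Igha, the constant gene of IgA, had its lowest levels in Con. Con mice had 28.1, 39.6 and 40.1 FPKM, Van mice 78.2, 74.1 and 42.4 FPKM, and VanLip mice 77.1, 93.0 and 199 FPKM. Every library of the treated groups was above every Con library, though Van replicate 3 only just, and VanLip replicate 3 stood far above the other 8. The log2 fold change was 0.84 in Van against Con (95% interval -0.021 to 1.70) and did not pass the test (DESeq2 adjusted p = 0.355). It passed without VanLip replicate 3 (adjusted p = 0.0491), which is in neither group but enters the shared estimate of spread. In VanLip against Con, Igha rose by 1.75 on the log2 scale (standard error 0.44, DESeq2 adjusted p = 0.00304), a 3.37-fold higher level. Without VanLip replicate 3 the value was 1.22 (adjusted p = 0.00241), and the call was lost without Con replicate 1 (adjusted p = 0.0531). VanLip and Van overlapped, with a log2 fold change of 0.91 (95% interval 0.051 to 1.77, DESeq2 adjusted p = 0.208), and 0.38 without VanLip replicate 3 (adjusted p = 0.527).

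Ighg2b, the constant gene of IgG2b, had 4.63, 7.29 and 18.1 FPKM in Con, 11.1, 16.1 and 12.1 FPKM in Van and 11.1, 13.3 and 14.9 FPKM in VanLip. Con spanned the range of both other groups because Con replicate 3 held the highest level of all 9 libraries. The log2 fold changes against Con were 0.38 in Van and 0.38 in VanLip (standard error 0.48 for each, DESeq2 adjusted p = 0.839 and 0.769). Without Con replicate 3 they became 1.11 and 1.11, and both passed (adjusted p = 1.09e-04 and 6.24e-05), so this library decided the call. Ighg2b is nearly identical in sequence to Ighg2c over long stretches, and reads can be exchanged between them, which makes its level uncertain. Ighg2c, measured as 17.5 ± 14.2 FPKM in Con (SD, n = 3), was called in no contrast.

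Igkc and Jchain, each of which serves antibodies of more than 1 isotype, did not pass the test in any contrast. Igkc had 400, 481 and 518 FPKM in Con, 441, 427 and 334 FPKM in Van and 333, 410 and 505 FPKM in VanLip. All 3 groups overlapped, and the log2 fold changes were -0.23 (95% interval -0.53 to 0.070) in Van and -0.18 (95% interval -0.48 to 0.12) in VanLip against Con. With 1 library left out they ran from -0.32 to -0.12 (highest without Van replicate 3) and from -0.35 to -0.054 (highest without VanLip replicate 1). Jchain had 35.6, 46.4 and 48.9 FPKM in Con, 37.2, 34.6 and 28.5 FPKM in Van and 32.7, 38.0 and 54.3 FPKM in VanLip. The groups overlapped here too, with log2 fold changes of -0.38 (95% interval -0.79 to 0.026, DESeq2 adjusted p = 0.386) in Van (-0.53 without Con replicate 1 and -0.24 without Van replicate 3) and -0.083 (95% interval -0.49 to 0.32, DESeq2 adjusted p = 0.908) in VanLip against Con.

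Of the receptor and surface genes, none passed DESeq2 or edgeR in any contrast, and an unadjusted p under 0.05 was found for Cd22 in VanLip against Con and for Cd79b in VanLip against Van. Cd79a, which encodes the signaling chain Ig-alpha, had 1.06, 1.02 and 1.62 FPKM in Con, 0.880, 1.14 and 0.653 FPKM in Van and 0.887, 1.18 and 1.47 FPKM in VanLip. These ranges overlapped, and the largest of its log2 fold changes, -0.48 in Van against Con, had a 95% interval of -1.09 to 0.13 (DESeq2 adjusted p = 0.520) and was -0.68 with Van replicate 2 left out and -0.26 with Con replicate 3 left out. Cd79b, which encodes its partner Ig-beta, had 8.36, 9.62 and 9.99 FPKM in Con, 7.25, 8.72 and 8.92 FPKM in Van and 9.10, 10.2 and 10.5 FPKM in VanLip. All VanLip libraries were above all Van libraries, by 0.24 on the log2 scale (95% interval 0.017 to 0.46), and this did not pass adjustment (DESeq2 adjusted p = 0.197). Although the proteins form a pair, Cd79b was 6.16 to 13.7 times the level of Cd79a in FPKM within a library.

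Cd22, the inhibitory receptor, had 6.28, 4.98 and 5.61 FPKM in Con, 5.14, 4.86 and 4.17 FPKM in Van and 2.41, 4.78 and 4.85 FPKM in VanLip. All VanLip libraries were below all Con libraries, and VanLip replicate 1 was the lowest by a wide margin. The log2 fold change in VanLip against Con was -0.53 (95% interval -0.96 to -0.099) and did not pass adjustment (DESeq2 adjusted p = 0.142), and it moved with the library left out. Without VanLip replicate 3 it was -0.69 (adjusted p = 0.0379), and without VanLip replicate 1 it was -0.27 (adjusted p = 0.272). Ms4a1 had 0.358, 0.397 and 0.263 FPKM in Con, 0.135, 0.299 and 0.308 FPKM in Van and 0.130, 0.191 and 0.277 FPKM in VanLip. The 3 groups overlapped, and the log2 fold change in VanLip against Con, -0.81 (95% interval -1.64 to 0.011, DESeq2 adjusted p = 0.286), was the most negative of its 3.

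The make-up of the heavy chain transcripts was then compared within each library, as a share of the summed FPKM of all 8 heavy constant genes. Igha made up 7.42%, 8.91% and 8.29% in Con, 19.6%, 19.2% and 13.4% in Van, and 21.2%, 22.0% and 36.0% in VanLip. No 2 groups overlapped. The mean share of Ighm was 83.2% ± 3.9 in Con (SD, n = 3), against 69.7% ± 5.5 in the Van mice and 64.4% ± 7.6 in the VanLip mice, and Ighg2b took 1.22% to 3.74% in Con, 2.78% to 4.17% in Van and 2.68% to 3.16% in VanLip. Ighd never exceeded 0.255%. Igkc made up 86.8% to 91.9% of the light chain constant FPKM, with no separation of the groups, and the lambda genes Iglc1, Iglc2 and Iglc3 took the rest.

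**Figure D3:**
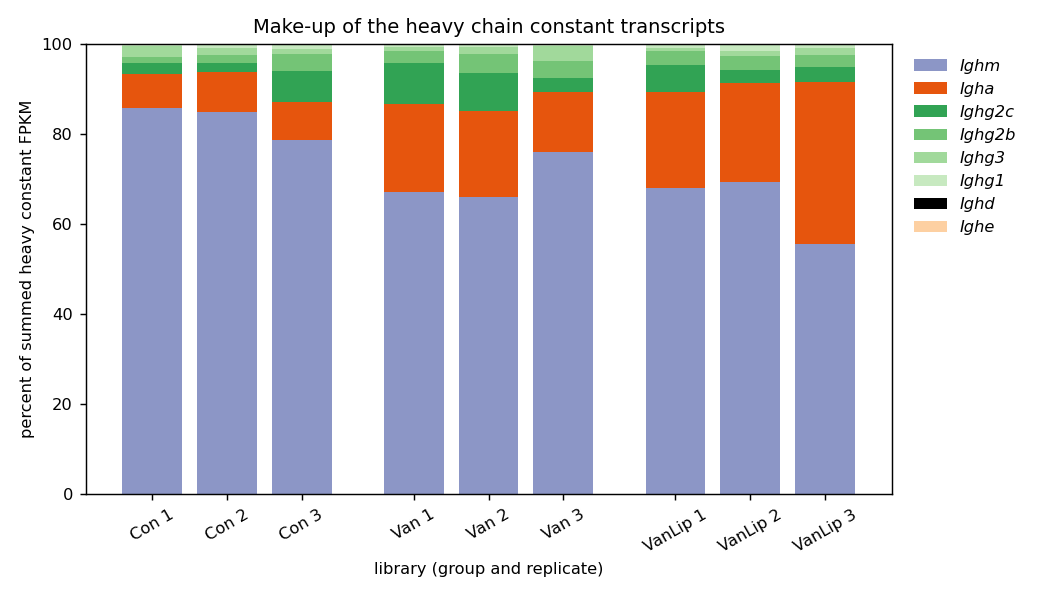
Share of each heavy chain constant gene (colored segments, percent of the summed FPKM of all 8) in each of the 9 libraries. The Igha segment was 7.42% to 8.91% in Con, 13.4% to 19.6% in Van and 21.2% to 36.0% in VanLip.

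Where both genes come only from the B lineage, a ratio of 2 members within a library does not depend on how much B lineage RNA the library held. That origin was not tested. In all, 8 ratios of 2 members were tested over the libraries by an exact permutation test of the F statistic, two-sided, with adjustment over the 8. Igha per 100 Ighm was 8.64, 10.5 and 10.5 in Con, 29.2, 29.0 and 17.6 in Van, and 31.2, 31.8 and 64.7 in VanLip. The log2 ratio was higher by 1.32 in Van and by 2.02 in VanLip than in Con, and the exact permutation p of 0.00357 was the smallest that 1680 assignments can give (adjusted p = 0.0286). It was the only ratio of the 8 that passed, and the 8 were chosen with earlier results of these data known. The call was lost without any single Con library (adjusted p = 0.0571 to 0.1), Van replicate 2 or 3 (adjusted p = 0.0857 and 0.129) or VanLip replicate 3 (adjusted p = 0.0857). Van and VanLip did not overlap in this ratio, but a pair of groups of 3 cannot go below an exact permutation p of 0.1, which each pair reached.

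Ighd per 100 Ighm was 0.297, 0.245 and 0.209 in Con, 0.175, 0.0917 and 0.107 in Van and 0.153, 0.232 and 0.207 in VanLip. Van lay below Con without overlap and VanLip overlapped both, with an exact permutation p of 0.0429 (adjusted p = 0.114), and the ratio passed without Van replicate 1 (adjusted p = 0.0429). Jchain per 100 Igkc was 8.90, 9.64 and 9.43 in Con, 8.43, 8.11 and 8.54 in Van and 9.82, 9.25 and 10.7 in VanLip, and Van was below both other groups (exact permutation p = 0.0143, adjusted p = 0.0571). This ratio passed with 0.1 added to each FPKM (adjusted p = 0.0429) and without VanLip replicate 2 (adjusted p = 0.0143), and from expected counts in place of FPKM its exact permutation p was 0.161 (adjusted p = 0.224). Cd22 per 100 Cd79a was 593, 487 and 346 in Con, 584, 425 and 639 in Van and 271, 404 and 330 in VanLip, and VanLip lay below Van without overlap (exact permutation p over all groups = 0.107, adjusted p = 0.214). The ratios of Ighg2b to Ighm, Igkc to Cd79a, Cd79b to Cd79a and Ms4a1 to Cd79a had adjusted p of 0.217 to 0.618 by the same exact permutation test.

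**Figure D4:**
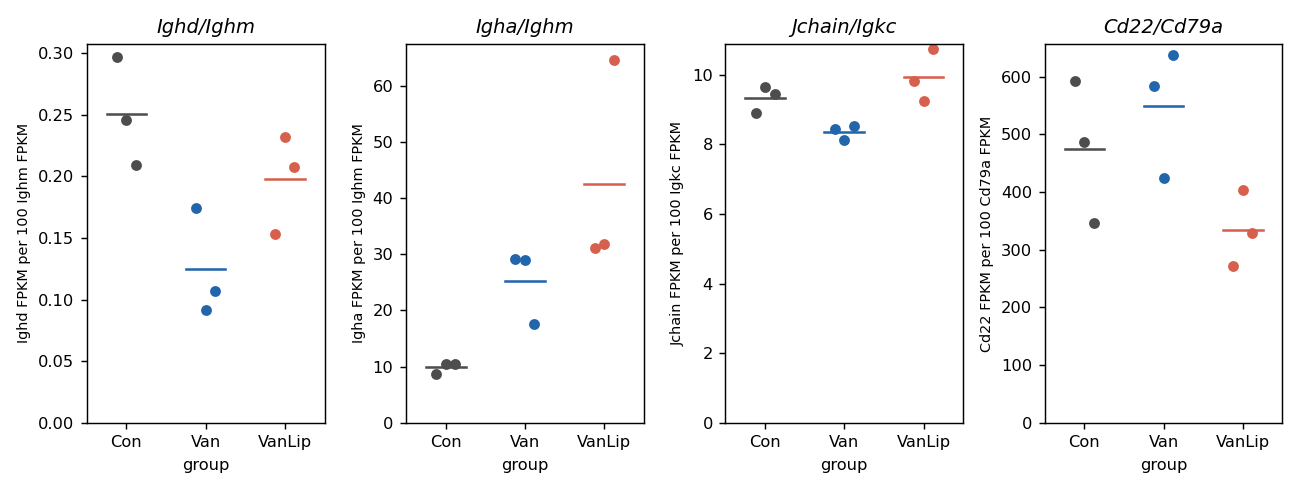
Within-library ratios of FPKM, as the level of the first gene per 100 of the second, with 1 point per mouse and a bar at the group mean. Igha per 100 Ighm was at most 10.5 in Con and at least 17.6 in the other groups, and Ighd per 100 Ighm was at most 0.175 in Van.

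The variable segments that are joined to these constant genes were counted by class. Summed over all Ighv rows, the level was 265 ± 49.7 FPKM for Con (SD, n = 3), 234 ± 41.4 for Van and 276 ± 78.5 for VanLip, and the 3 groups overlapped. The Igkv sums, 417 ± 66.5, 342 ± 51.2 and 393 ± 92.8 FPKM, overlapped as well. By the mean over all 9 libraries, the leading segment of each class was Ighv1-80, Igkv1-117 or Iglv1, but Ighv1-80 ran from 2.26 to 26.1 FPKM and led its class only in Con replicate 1 and Van replicate 1. The single leading heavy segment of a library took 5.35% to 11.9% of the Ighv sum and the leading kappa segment 6.87% to 10.8% of the Igkv sum, so many segments contributed in every mouse. Variable segments resemble each other closely, and their values may be shared between rows.

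Other B lineage genes were examined as lists chosen by function, and their counts can be read against the shares of all genes called, which were 4.33% in Van against Con, 6.23% in VanLip against Con and 9.20% in VanLip against Van. Among 20 genes of receptor signaling and co-receptors, 1 rose and 3 fell in Van against Con, none was called in VanLip against Con by DESeq2, edgeR or limma (3 at an unadjusted p under 0.05, against 3315 of 25420 genes), and 1 rose and 3 fell in VanLip against Van. The median log2 fold changes of the list were -0.21, -0.15 and 0.041. Syk, the kinase recruited by Cd79a and Cd79b and one also used by monocytes, rose from 118 ± 4.6 to 153 ± 10.1 FPKM in Van (log2 fold change 0.38, DESeq2 adjusted p = 0.00520) and was lower in VanLip than in Van (-0.51, DESeq2 adjusted p = 1.26e-05). Blk, a B cell kinase at 1.21 ± 0.60 FPKM in Con, fell in Van by 1.36 on the log2 scale (DESeq2 adjusted p = 0.0181), as did the kinase gene Prkcb, by 0.44 (adjusted p = 0.0222). Cd40, the receptor for T cell help, fell in Van by 0.58 (adjusted p = 0.00884) and rose in VanLip against Van by 0.48 (adjusted p = 0.0272). Fcgr2b and Lyn, a pair with inhibitory functions in B cells that monocytes also express, were lower in VanLip than in Van, by log2 values of -0.52 and -0.17 (DESeq2 adjusted p = 0.00161 and 0.0144).

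Of 12 transcription factors of the B lineage, all had log2 fold changes below 0 in Van against Con, with a median of -0.32, and 2 were called. These were Bach2, which restrains plasma cell formation (-0.66, DESeq2 adjusted p = 0.00344), and Bcl11a (-0.38, DESeq2 adjusted p = 0.00334). In VanLip against Con 2 of 11 were called lower, Ciita (-1.06, DESeq2 adjusted p = 1.04e-05), the regulator of MHC class II genes, and Foxo1 (-0.28, DESeq2 adjusted p = 7.43e-05). VanLip against Van gave 3 higher, Irf8, Ikzf3 and Tcf3, the last named after its value was seen, and 2 lower, Ciita and Foxo1. The factors that define B cell identity were close to 0, with a mean over all libraries of 0.050 FPKM for Pax5 and 0.011 FPKM for Ebf1. Most of the factors called are also expressed in monocytes or dendritic cells. With edgeR no gene of this list, of the receptor signaling list or of the plasma cell list below was called in Van against Con.

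The 16 genes of plasma cells and the secretory pathway gave 2 higher and 2 lower in Van against Con, 2 lower in VanLip against Con and 2 of each in VanLip against Van, beside the same shares of all genes. Of the genes listed for plasma cells, Sdc1, encoding CD138, was at 2.28 ± 0.58 FPKM in Con. It fell in Van by 0.71 on the log2 scale (DESeq2 adjusted p = 0.0247). It was higher in VanLip than in Van by 0.70 (DESeq2 adjusted p = 0.0152). Prdm1, encoding Blimp-1, fell in VanLip against Con by 0.92 (DESeq2 adjusted p = 6.42e-06), as did Slamf7, by 0.73 (DESeq2 adjusted p = 0.00564), and Irf4 fell in Van by 0.57 (DESeq2 adjusted p = 0.00950) and was higher in VanLip than in Van by 0.65 (DESeq2 adjusted p = 6.14e-04). The chaperone genes Hsp90b1 and Pdia4 rose in Van by 0.36 and 0.40 (DESeq2 adjusted p = 0.00560 and 0.0330). The genes lower in VanLip than in Van were Prdm1, by log2 -0.92 (DESeq2 adjusted p = 3.39e-06), and Hsp90b1, by log2 -0.32 (DESeq2 adjusted p = 0.00884). Mzb1, a marker of antibody-secreting cells, was at 2.12 ± 1.05 FPKM in Con, 2.06 ± 0.45 in Van and 2.06 ± 0.91 in VanLip, and Tnfrsf17, encoding BCMA, was at 0.095 ± 0.085, 0.157 ± 0.140 and 0.314 ± 0.268 FPKM. Neither passed the test. Over all libraries the mean was 6.90 FPKM for Prdm1, 10.4 for Slamf7 and 6.35 for Irf4. It was 2.08 FPKM for Mzb1, 1.97 for Sdc1 and 0.189 for Tnfrsf17. The study places Irf4 among monocyte genes that dampen inflammatory signaling, lower after vancomycin and back up with L654. Which cells the transcripts of this list came from was not tested, so their changes cannot be assigned to plasma cells.

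Of the other 7 immunoglobulin constant genes, none was called in any contrast by DESeq2, edgeR or limma, and 0 had an unadjusted p under 0.05. Those of highest mean level were Iglc1, at 26.7 ± 11.6 FPKM in Con, 19.7 ± 4.8 in Van and 24.6 ± 4.7 in VanLip, and Ighg2c, at 26.0 ± 14.6 FPKM in Van and 17.3 ± 4.8 in VanLip. Going downstream along the heavy chain locus, the log2 fold change in VanLip against Con was -0.36 for Ighm, -0.69 for Ighd, -0.51 for Ighg3, 0.57 for Ighg1, 0.38 for Ighg2b, -0.017 for Ighg2c and 1.75 for Igha. Only the first and the last of these were called. Ighe, which lies between Ighg2c and Igha, was listed at 0 in every Con library, at 0.489, 0 and 0.276 FPKM in Van and at 0, 0.0678 and 0 FPKM in VanLip, so no fold is given for it. Of 12 other B cell surface and cytosolic markers, 11 could be tested. Of these, 1 was lower in Van against Con, 2 rose and 2 fell in VanLip against Con, and 2 rose in VanLip against Van. Cd37, a tetraspanin of B cells and other leukocytes, fell in Van by 0.26 (DESeq2 adjusted p = 0.0181), and Cd24a rose in VanLip by 0.64 against Con (DESeq2 adjusted p = 1.42e-04). These were also the genes higher in VanLip than in Van, at 39.2 ± 2.1 against 32.2 ± 0.67 FPKM and 8.58 ± 0.64 against 4.73 ± 0.60 FPKM. Cd74, the invariant chain of MHC class II, fell in VanLip against Con from 2276 ± 353 to 1296 ± 420 FPKM (log2 fold change -0.84, DESeq2 adjusted p = 0.0336). H2-Ob was also called lower in VanLip than in Con, at 2.39 ± 0.16 against 3.29 ± 0.31 FPKM. Cd55 was called higher there, at 3.17 ± 1.88 against 1.52 ± 0.35 FPKM, with 5.33 FPKM in VanLip replicate 1.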

How the data were processed

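Messenger RNA of splenic monocytes from 9 mice was sequenced as paired reads. Per the labels, the authors aligned reads to GRCm38 with HISAT2 2.2.1, handled alignments with SAMtools 1.9, and deposited FPKM per gene from StringTie 2.1.3 and expected counts per gene, which are not normalized, from tximport. The annotation release is not given in the sources used here, and 99.0% of detected genes matched GENCODE release M21, which supplied coordinates and transcripts. The RNA kit preserves strand, but how strand was used in counting is not given.

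The sample titles gave group and replicate. FPKM was used for levels and ratios. For testing, the counts were rounded and fitted with DESeq2 1.42.0 in R 4.3.3 over all genes detected in at least 1 library, with all 9 libraries in 1 fit, group as the only term, default independent filtering and Benjamini-Hochberg adjustment over all genes (call at 0.05 or under). Intervals are 95% Wald intervals. The likelihood-ratio test covered any difference among groups. All tests are two-sided. Ratios were tested by exact permutation. Replicates are separate mice per the study. The precision of a low level is limited by its reads.

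Alternatives were edgeR 4.0.16, scaling by TMM, genes with 10 or more counts in 3 libraries, no independent filtering, only the groups compared, a replicate block, reads in place of counts, VanLip thinned to the mean depth of the others, limma 3.58.1 on quantile-normalized log2(FPKM + 1), the same with 0.1 added or limited to genes averaging 1 FPKM or more, and omission of each library in turn. The code was tested on simulated data. The members, gene lists and ratios were chosen with earlier results of these data known. All members are named. From each list up to 6 genes called in any contrast, lowest adjusted p first, could be named, or the 2 of highest level where none was called, and genes that define a cell type were added after their values were seen. Likeness to Cd79a and Jchain was ranked by Pearson r of log2(FPKM + 1) over genes of mean FPKM 1 or over.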

Additional observations from a re-analysis of the deposited data

How the results depend on the processing

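Members called numbered 2 in Van and 2 in VanLip against Con, 0 in VanLip against Van, and 3 by the test of any difference. With edgeR each contrast with Con gave 1, in a fit that called 189 of 25441 genes in Van against Con. With limma on FPKM both gave 0 at either pseudocount and with the filter on mean FPKM, and the test of any difference gave 0 at either pseudocount and 1 with the filter. In Van against Con limma called 92 of 26108 genes with 1 added and 17 with 0.1 added. Leaving out 1 library gave, in the same order, 1 to 3, 1 to 3, 0 to 1 and 2 to 4. The number of ratios that passed was 1, with 2 when 0.1 was added to FPKM and 0 to 2 when 1 library was left out. The cause was not tested, although leaving out a library also leaves fewer samples. In the 198 values of the members in Van against Con, the direction did not turn under any alternative that gave a value. In the other contrasts 16 values turned, none of them called. Leaving out 1 library gave log2 fold changes of -0.37 to 0.057 for Jchain and -0.27 to 0.15 for Cd79a in VanLip against Con, and of -0.11 to 0.15 for Ighg2b, -0.12 to 0.18 for Igkc and -0.40 to 0.013 for Cd22 in VanLip against Van. Ighg2b, at -0.0029 in that contrast, also turned to 0.022 with edgeR and 0.022 with TMM, 9.8e-04 with only the groups compared, 0.0079 and 0.0089 with limma at pseudocounts of 1 and 0.1, and 0.0079 with the filter. Deviations of same-numbered replicates from their group means had correlations of -0.065 to 0.12. Pairs with different numbers were not compared, so a shared batch could not be judged. With the replicate block the counts were 2, 2, 0 and 3, and it changed no member's call. Any difference could not be fitted with only 2 groups. Ighd and Ms4a1 had no value under the filter on mean FPKM. Single libraries were not tested as outliers within their groups of 3, apart from the default filter of DESeq2 on count outliers. Ighd, Ms4a1 and Cd79a rested on the fewest reads, and read size and depth of VanLip could not be entered as a term.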

Other observations

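Genes of marginal zone, B1 and germinal center B cells and of early B cells were also examined. Of 10 such genes of mature subsets, 9 could be tested, and 1 was called in Van against Con (Cd1d1, higher, log2 fold change 0.28, DESeq2 adjusted p = 0.0434) and 1 in VanLip against Con (Myof, lower, -0.48, DESeq2 adjusted p = 0.0191). In VanLip against Van 2 were called, S1pr2 higher (0.36, DESeq2 adjusted p = 0.0241) and Cd1d1 lower (-0.41, DESeq2 adjusted p = 1.38e-04). Rgs13 and the early genes Rag1, Rag2 and Igll1 were listed at 0 in every library. Vpreb1 was at 0 in every Con library, at 0.0972, 0.0328 and 0 FPKM in Van and at 0.107, 0.133 and 0.262 FPKM in VanLip. Dntt was above 0 only in VanLip replicates 1 and 3, at 0.0522 and 0.0205 FPKM. The VanLip libraries were also the deepest. Il7r, which T cells also express, was lower in VanLip than in Con (-0.70, DESeq2 adjusted p = 0.0106).

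Of the 10 monocyte markers, 1 was called in Van against Con (Ccr2, lower, -0.83, DESeq2 adjusted p = 4.80e-04) and 0 in VanLip against Con by DESeq2 or edgeR (1 at an unadjusted p under 0.05). In VanLip against Van, 3 were called higher (Ly6c2, Ccr2 and Cx3cr1) and 1 lower (Fcgr4). Summed over 8 T cell markers the level was 12.7 to 17.2 FPKM in Con, 9.68 to 14.0 in Van and 7.57 to 15.9 in VanLip, and none was called by DESeq2 or edgeR (1 at an unadjusted p under 0.05, in Van against Con). Summed over 5 NK cell markers it stayed between 0.221 and 0.654 FPKM. The 6 neutrophil markers, with Ly6g at 0 in every library, summed to 1.88 to 11.3 FPKM, and Ngp was lower in VanLip than in Con. The 4 platelet markers summed to 4.65 to 21.7 FPKM, with none called by DESeq2 or edgeR (1 at an unadjusted p under 0.05 in Van and 2 in VanLip against Con). Of 7 plasmacytoid dendritic cell markers, Siglech was lower in Van than in Con (-0.89, DESeq2 adjusted p = 0.0475) and higher in VanLip than in Van (0.85, DESeq2 adjusted p = 0.0315). Of 6 conventional dendritic cell markers 2 were lower in each contrast with Con, and 1 was higher in VanLip than in Van. Of 4 red pulp macrophage markers, Vcam1 was higher in Van than in Con (0.46, DESeq2 adjusted p = 0.0106) and lower in VanLip than in Van.

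The 8 genes most like Cd79a over the 9 libraries had Pearson r of 0.913 to 0.954 and Spearman rho of 0.833 to 0.933, led by A230050P20Rik, Supt6 and Camkmt. The 8 most like Jchain had r of 0.926 to 0.954 and rho of 0.817 to 0.983, led by Snupn, Dmwd and Suclg2. They were ranked among 11702 genes with so few libraries, and 0 of the 16 are in any of the lists above.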
